A study of Mus musculus with 4 samples.

Results

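The 10 transcription factors of the naive pluripotent state examined here, of 54838 gene identifiers in the count tables, were followed in mouse embryonic stem cells that carry a tagged p300. The members were chosen by symbol, with earlier results of these data known: Klf2, Klf4, Klf5, Esrrb, Tfcp2l1, Tbx3, Nr0b1, Prdm14, Nr5a2 and Zfp42. Each matched 1 Ensembl identifier in GENCODE M21 on GRCm38, and all 10 passed the filter on low counts. RNA sequencing was done on 2 libraries of the p300 knock-in line, named MLC460, and on 2 libraries of the wild-type E14 line (E14Tg2a.4, strain 129/Ola). In MLC460, CRISPR/Cas9 was used to join monomeric enhanced green fluorescent protein to the N-terminus of endogenous p300, a histone acetyltransferase and coactivator. Both lines share the E14 background and were grown without feeders on gelatin, in serum with leukemia inhibitory factor (LIF). The comparison asks whether the tagged line keeps the expression of its parent. The labels name a single knock-in line, so a difference caused by the tag and one that arose while the line was derived cannot be told apart.

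In the mouse epiblast and in the stem cells derived from it, the naive state is held by a network of transcription factors that surrounds the core factors OCT4, SOX2 and NANOG. LIF acts through STAT3 on Klf4 and Tfcp2l1, relief of TCF7L1 repression acts on Esrrb, Klf2 and Tfcp2l1, and the factors bind each other's enhancers, where p300 is a common coactivator. In serum with LIF the network is active but uneven from cell to cell, above all for Zfp42, Tbx3, Prdm14 and Esrrb. A library of pooled cells shows only the mean, so fewer cells with a transcript and less transcript per cell cannot be told apart here.

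RefSeq promoter windows (GRCm38.p6) matched 7 of the 10 members: Klf2, Klf4, Esrrb, Tfcp2l1, Nr0b1, Nr5a2 and Zfp42. Shown are the bases upstream of the outermost annotated start for the member with the highest level per length (Zfp42), the member with the largest log2 fold change between the lines (Klf4) and the member whose wild-type libraries lay farthest apart (Nr0b1). Capitals mark matches, on either strand, to the octamer ATGCAAAT bound by POU factors, the GC box GGGCGG, the CACCC box CCACACCC of KLF-type factors, the half-site AAGGTCA read by ESRRB and NR5A2, the STAT site TTCNNNGAA and the TATA box TATAAA.
Zfp42, chr8:43307010-43307259, minus strand: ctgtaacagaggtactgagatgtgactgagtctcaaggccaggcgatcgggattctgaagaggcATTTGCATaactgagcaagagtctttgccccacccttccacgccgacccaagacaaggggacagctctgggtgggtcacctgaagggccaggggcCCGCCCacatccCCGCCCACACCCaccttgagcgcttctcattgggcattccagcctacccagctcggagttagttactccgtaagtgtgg
Klf4, chr4:55532476-55532725, minus strand: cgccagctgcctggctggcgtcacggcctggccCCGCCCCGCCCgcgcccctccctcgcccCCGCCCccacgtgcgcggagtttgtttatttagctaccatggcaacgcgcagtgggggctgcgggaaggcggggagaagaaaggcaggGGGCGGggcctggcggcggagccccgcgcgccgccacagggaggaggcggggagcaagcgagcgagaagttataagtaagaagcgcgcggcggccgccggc
Nr0b1, chrX:86191525-86191763, plus strand: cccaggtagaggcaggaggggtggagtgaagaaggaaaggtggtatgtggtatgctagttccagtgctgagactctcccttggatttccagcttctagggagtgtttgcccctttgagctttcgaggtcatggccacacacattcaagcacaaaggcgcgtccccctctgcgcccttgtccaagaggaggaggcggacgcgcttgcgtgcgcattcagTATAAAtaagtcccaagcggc

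The Zfp42 window held an octamer that begins 186 bases upstream of the RefSeq start, GC boxes at 91 and 79 bases and a CACCC box at 75 bases that shares bases with the second GC box. The octamer was present in 1.60% of all 32851 promoter windows of 250 bases and the CACCC box in 3.20%; among the 7 members both occurred in Zfp42 alone. The Klf4 window was 74.0% GC, against a median of 52.4% over all windows, and held 4 GC boxes, of which the first and second share a base. GC boxes were found in 3 of 7 members (Klf2, Klf4 and Zfp42) and in 32.7% of all windows. The Nr0b1 window held a TATA box 32 bases upstream of the start; 3 of 7 members had one (Tfcp2l1, Nr0b1 and Nr5a2), against 12.4% of all windows. The STAT site matched 1 of 7 members (Esrrb) and 7.02% of windows, and the half-site AAGGTCA 0 of 7 members and 4.08% of windows. These are letter matches only, and the counts of reads do not bear on them.

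All 10 members were detected at high depth, with 2812 reads for Prdm14 and 77890 for Zfp42 summed over the libraries. Libraries held 18946731 to 26553998 counts assigned to genes, and the members together took 0.365% and 0.354% of them in knock-in 1 and 2, and 0.344% and 0.356% in wild-type 1 and 2. The cells had the transcripts of embryonic stem cells: Pou5f1, Sox2 and Nanog stood at 236, 214 and 272 CPM per kb (mean of 4 libraries). CPM denotes counts scaled to library size after TMM, edgeR's correction for RNA composition. The targeted gene did not separate the lines, with 181 and 210 CPM of Ep300 in the knock-in libraries and 209 and 210 CPM in the wild-type libraries. Its paralog Crebbp had 53.4 and 63.2 CPM in knock-in cells, and 50.3 and 58.4 CPM in wild-type cells. Wild-type 2 stood apart. Over 13137 genes, the GC content of the transcript and the distance of wild-type 2 from the mean of the rest had a Spearman rho of 0.71 (genes are not independent). Mitochondrial genes took 1.04% and 1.08% of the counts in the knock-in libraries, and 1.27% and 0.589% in wild-type 1 and 2, and counts differed less within the knock-in pair (chi-square over its degrees of freedom 6.02) than within the wild-type pair (49.1). Members are therefore also given without wild-type 2 and with a GC offset, a term fitted per library that removes this trend.

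Levels per length of exon ranked the members, and the order was read from CPM per kb. Zfp42 was the highest at 447 CPM per kb (422 to 493 over the 4 libraries), above 99.4% of the 15191 genes tested. Zfp42, known as REX1, is a zinc finger protein related to YY1 and a reporter of the naive state. Klf2 and Esrrb followed at 157 and 140 CPM per kb, with ranges of 135 to 190 and 123 to 150 that overlapped. Nr0b1 (90.2), Klf4 (68.3), Klf5 (64.4) and Tfcp2l1 (60.0 CPM per kb) formed a middle group in which each overlapped its neighbour. Tbx3 stood alone at 30.2 CPM per kb (28.8 to 31.6). Nr5a2 and Prdm14 were the lowest, at 13.1 and 11.8 CPM per kb, with overlapping ranges of 11 to 14.7 and 11 to 12.5. Prdm14 still lay above 72.6% of tested genes. Length matters to this order: with the longest transcript in place of all exons, Esrrb had 197 CPM per kb and came before Klf2, and Klf5 had 99.9 CPM per kb and came before Nr0b1.

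**Figure D1:**
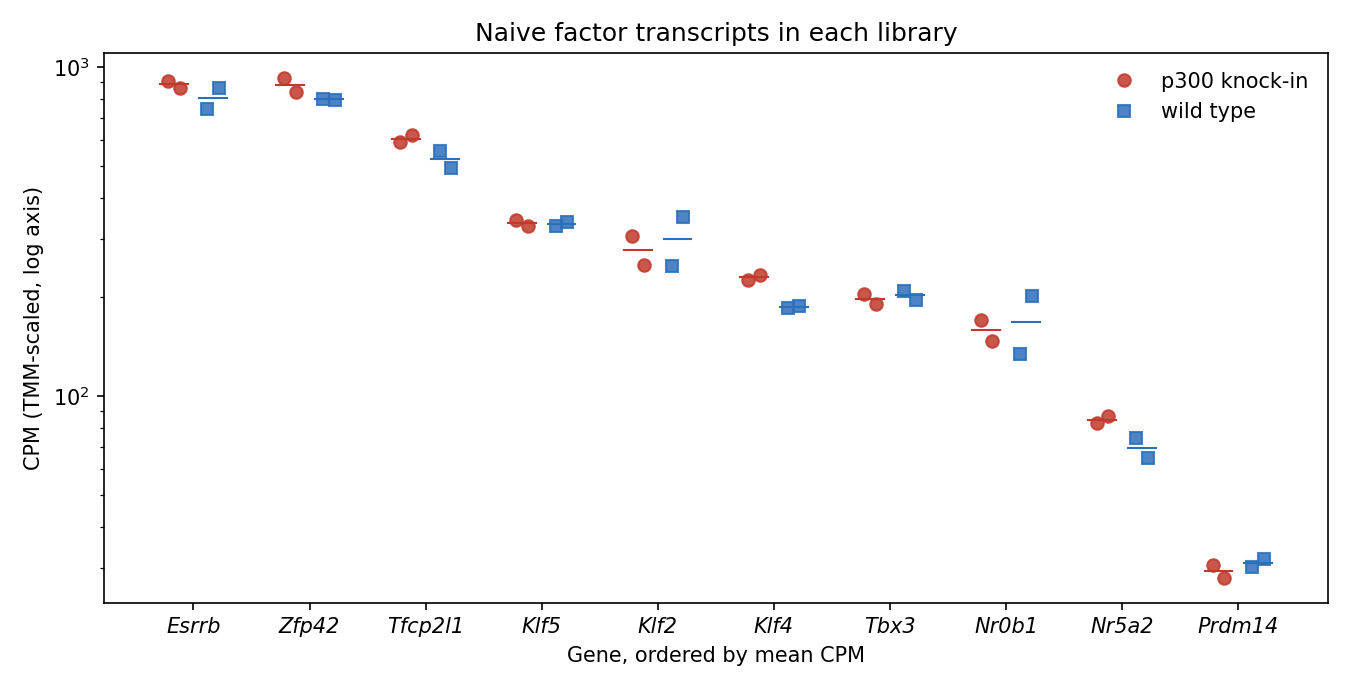
CPM of each member in each library on a log axis, knock-in libraries as red circles and wild-type libraries as blue squares, with the line at the mean of 2. Klf4 shows 2 tight, separate pairs (226 and 234 CPM against 186 and 188 CPM), while the wild-type squares of Klf2 and Nr0b1 lie on either side of the knock-in circles.

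No member passed the test between the lines. In edgeR's quasi-likelihood test, 0 of 10 members had an adjusted p under 0.05 over all genes, where the share of all 15191 genes called was 0.0658%, and 0 of 10 had an unadjusted p under 0.05, where the share was 10.9%. DESeq2 also called 0 of 10, against 0.878% of all genes. The log2 fold changes of knock-in over wild type lay between -0.10 (Klf2) and 0.30 (Klf4), with a median of 0.076, beside a median of 0.00098 and an interquartile range of -0.24 to 0.21 over all genes tested. Both knock-in libraries were above both wild-type libraries for 5 of 10 members (Klf4, Esrrb, Tfcp2l1, Nr5a2 and Zfp42), where 23.4% of all genes did so, and 0 of 10 were below, against 23.9%. Non-overlap in either direction was thus 5 of 10 members, near the 47.4% of all genes.

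**Figure D2:**
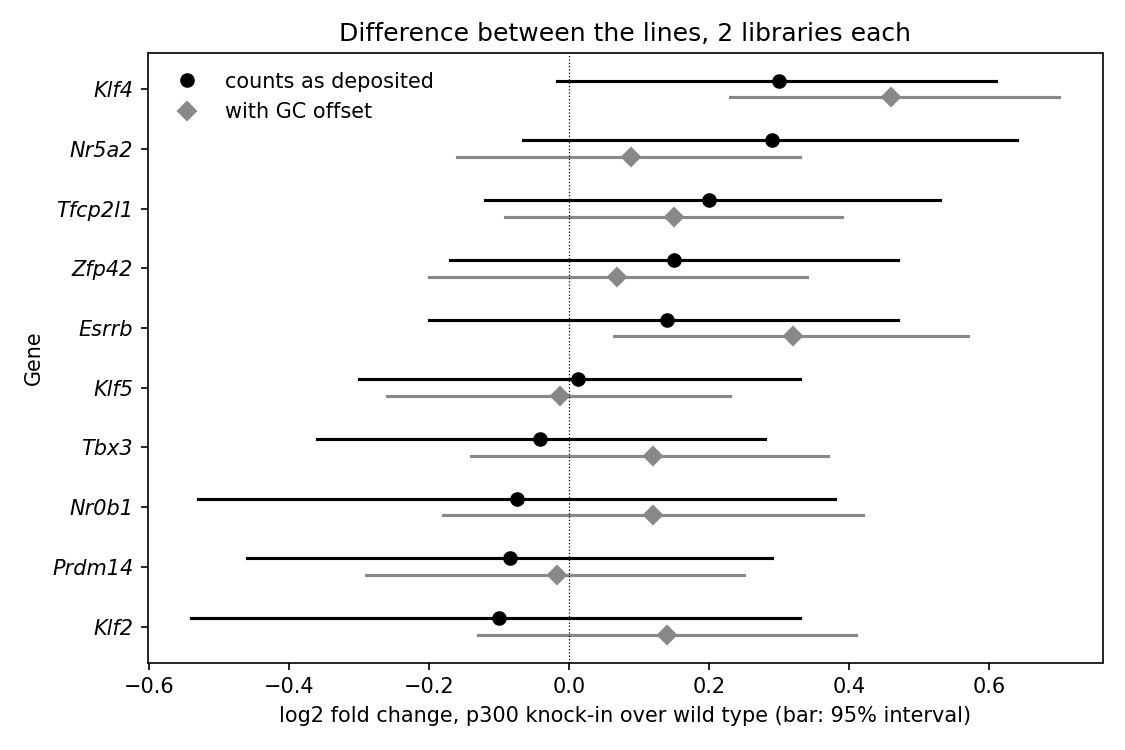
Log2 fold change of knock-in over wild type with its 95% interval for each member, from the counts as deposited (black circles) and with the GC offset (grey diamonds). Every black interval includes 0, and with the offset the intervals of Klf4 (0.23 to 0.70) and Esrrb (0.064 to 0.57) do not.

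The Krüppel-like factors KLF2, KLF4 and KLF5 bind CACCC and GC-rich sites and can stand in for each other in mouse stem cells. Klf4 (ENSMUSG00000003032, chromosome 4, 55527143 to 55532466, minus strand) had 226 and 234 CPM in the knock-in libraries, and 186 and 188 CPM in the wild-type libraries. The groups were tight and did not overlap. Its log2 fold change was 0.30 (95% interval -0.018 to 0.61, SE 0.14, edgeR adjusted p = 0.466), the largest of the 10, equal to 1.23-fold with an interval of 0.988 to 1.53. With the GC offset it was 0.46 (SE 0.11, unadjusted p = 0.000871), and the edgeR adjusted p of 0.0595 did not pass, where 1.17% of all genes passed. The offset moved the knock-in values to 241 and 246 CPM and the wild-type values to 185 and 168 CPM. On the log2 scale, wild-type 2 over wild-type 1 thereby went from 0.019 to -0.14. With wild-type 2 also left out of the offset fit Klf4 passed at 0.39 (edgeR adjusted p = 0.0327, 4.18% of all genes called), and with wild-type 1 left out at 0.53 (adjusted p = 0.000416, 11.3% called). Without the offset it passed when wild-type 1 was left out (0.29, adjusted p = 0.0273), where 32.1% of all genes passed, and did not without wild-type 2 (0.29, adjusted p = 0.104). Fits without a wild-type library take their spread from the knock-in pair alone.

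Klf2 (ENSMUSG00000055148, chromosome 8, 72319033 to 72321656, plus strand), which is repressed by FGF/ERK signalling and belongs to the naive network of ground-state cells, had 307 and 250 CPM in knock-in cells, and 249 and 350 CPM in wild-type cells. Knock-in 1 lay inside the wild-type range and knock-in 2 at its lower end. The log2 fold change was -0.10 (95% interval -0.54 to 0.33, SE 0.19, edgeR adjusted p = 0.849). Its transcript had the highest GC content of the members, 61.6%, and wild-type 2 was 0.49 above wild-type 1 on the log2 scale. The sign of the difference depended on the libraries: it was 0.15 without wild-type 2, 0.039 without knock-in 2 and 0.14 with the GC offset, but -0.28 without knock-in 1 and -0.33 without wild-type 1, where it passed as lower (edgeR adjusted p = 0.00932). With the offset the wild-type libraries stood 0.19 apart.

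Klf5 (ENSMUSG00000005148, chromosome 14, 99298691 to 99315036, plus strand), which acts in the inner cell mass against primitive endoderm fate, was the steadiest of the KLF members. It had 343 and 330 CPM in knock-in cells, and 328 and 339 CPM in wild-type cells. The groups overlapped, and the difference of 0.013 ± 0.14 (SE) on the log2 scale had a 95% interval of -0.30 to 0.33 (edgeR adjusted p = 0.979). Differences beyond about 1.25-fold up or 0.811-fold lay outside that interval. The value was 0.024 without wild-type 2 and -0.013 with the GC offset.

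The nuclear receptors of the group are ESRRB, an orphan receptor downstream of TCF7L1, NR5A2, an orphan receptor that can replace OCT4 in reprogramming and binds a like half-site, and NR0B1, known as DAX1, a receptor-like protein without the usual DNA-binding domain. Esrrb (ENSMUSG00000021255, chromosome 12, 86361117 to 86521628, plus strand) had 908 and 864 CPM in knock-in cells, and 746 and 864 CPM in wild-type cells. Knock-in 2 and wild-type 2 were almost equal, so the groups only just failed to overlap. Its log2 fold change was 0.14 (95% interval -0.20 to 0.47, SE 0.15, edgeR adjusted p = 0.723). With the GC offset the libraries read 971 and 911 CPM in knock-in cells, and 746 and 766 CPM in wild-type cells, which gave 0.32 ± 0.12 (SE) on the log2 scale (unadjusted p = 0.0176, edgeR adjusted p = 0.211). That value too did not pass over all genes, and 16.5% of all genes had an unadjusted p under 0.05 in the same fit. Without wild-type 2 the value was 0.23 (edgeR adjusted p = 0.271).

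Nr5a2 (ENSMUSG00000026398, chromosome 1, 136842571 to 136960448, minus strand) had 83.1 and 86.8 CPM in knock-in cells, and 74.4 and 64.9 CPM in wild-type cells. The groups did not overlap, and wild-type 2 was the lowest library. The log2 fold change of 0.29 (95% interval -0.066 to 0.64, SE 0.16, edgeR adjusted p = 0.502) was next in size to that of Klf4. It behaved otherwise under the offset: Nr5a2 has the lowest transcript GC content of the members (43.2%), and with the offset its value was 0.089 ± 0.11 (SE; edgeR adjusted p = 0.740), with knock-in libraries at 78.2 and 80.4 CPM and wild-type libraries at 68.9 and 80.4 CPM. Without wild-type 2 it was 0.18 (edgeR adjusted p = 0.462), and without wild-type 1 it was 0.39 and passed (edgeR adjusted p = 0.00389).

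Nr0b1 (ENSMUSG00000025056, chromosome X, 86191764 to 86195947, plus strand) had 170 and 147 CPM in knock-in cells, and 134 and 201 CPM in wild-type cells. Both knock-in values lay inside the wild-type range. The wild-type libraries stood 0.59 apart on the log2 scale, the widest gap of any member, and the log2 fold change of -0.074 had an SE of 0.20 and a 95% interval of -0.53 to 0.38 (edgeR adjusted p = 0.904). Without wild-type 2 it was 0.24 (edgeR adjusted p = 0.236), without knock-in 2 it was 0.031, and without wild-type 1 it was -0.34 and passed as lower (edgeR adjusted p = 0.00688). With the GC offset it was 0.12, and the wild-type libraries stood 0.41 apart.

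Tfcp2l1 and Tbx3 relay the LIF signal: TFCP2L1, a grainyhead-like factor, is a main target of STAT3, and TBX3, a T-box factor, lies downstream of PI3K and MAPK inputs. Tfcp2l1 (ENSMUSG00000026380, chromosome 1, 118627945 to 118685168, plus strand) had 591 and 621 CPM in knock-in cells, and 557 and 495 CPM in wild-type cells. All knock-in values exceeded all wild-type values, by little against wild-type 1. The log2 fold change was 0.20 (95% interval -0.12 to 0.53, SE 0.14, edgeR adjusted p = 0.587), 0.15 with the GC offset and 0.11 without wild-type 2. It was 0.29 and passed without wild-type 1 (edgeR adjusted p = 0.0296).

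Tbx3 (ENSMUSG00000018604, chromosome 5, 119670669 to 119684724, plus strand) had 204 and 191 CPM in knock-in cells, and 209 and 196 CPM in wild-type cells. The groups overlapped, with a log2 fold change of -0.041 (95% interval -0.36 to 0.28, SE 0.14, edgeR adjusted p = 0.928). It was -0.10 without wild-type 2 and 0.12 with the GC offset. Tbx3 is the member whose exons overlap an antisense gene, Tbx3os1, over 115 bases (1.74% of its exon bases). Summing both single-strand columns raised its count to between 101% and 104% of the unstranded count, so few of its reads were set aside as ambiguous. The other 9 members had 100% by the same measure. Tfcp2l1 shares 130 exon bases (1.38%) with the snRNA gene Gm23497 on the same strand, an overlap that this measure cannot show.

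PRDM14 and ZFP42 are chromatin-linked factors: PRDM14 represses FGF receptor and de novo DNA methyltransferase genes, and ZFP42 binds YY1-like sites. Prdm14 (ENSMUSG00000042414, chromosome 1, 13113457 to 13127163, minus strand) had 747 and 525 reads in knock-in cells and 832 and 708 reads in wild-type cells, the fewest of the members. These were 30.7 and 28.1 CPM in knock-in cells, and 30.2 and 32.1 CPM in wild-type cells, which overlapped. Its log2 fold change was -0.085 (95% interval -0.46 to 0.29, SE 0.17, edgeR adjusted p = 0.859). It was -0.052 without wild-type 2 and -0.018 with the GC offset. The genes it is known to repress did not pass either, with log2 fold changes of 0.12 for Dnmt3a, 0.11 for Dnmt3b, -0.28 for Dnmt3l, -0.26 for Fgfr1 and 0.21 for Fgfr2 (edgeR adjusted p = 0.489 to 0.778).

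Zfp42 (ENSMUSG00000051176, chromosome 8, 43295063 to 43306980, minus strand) had 927 and 842 CPM in knock-in cells, and 803 and 794 CPM in wild-type cells. Both knock-in libraries were above the wild-type libraries, which were within 0.017 of each other on the log2 scale. The log2 fold change was 0.15 (95% interval -0.17 to 0.47, SE 0.14, edgeR adjusted p = 0.692). It was 0.13 without wild-type 2 and 0.068 with the GC offset, which put knock-in 2 at 813 CPM, below wild-type 2 at 881 CPM.

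**Figure D3:**
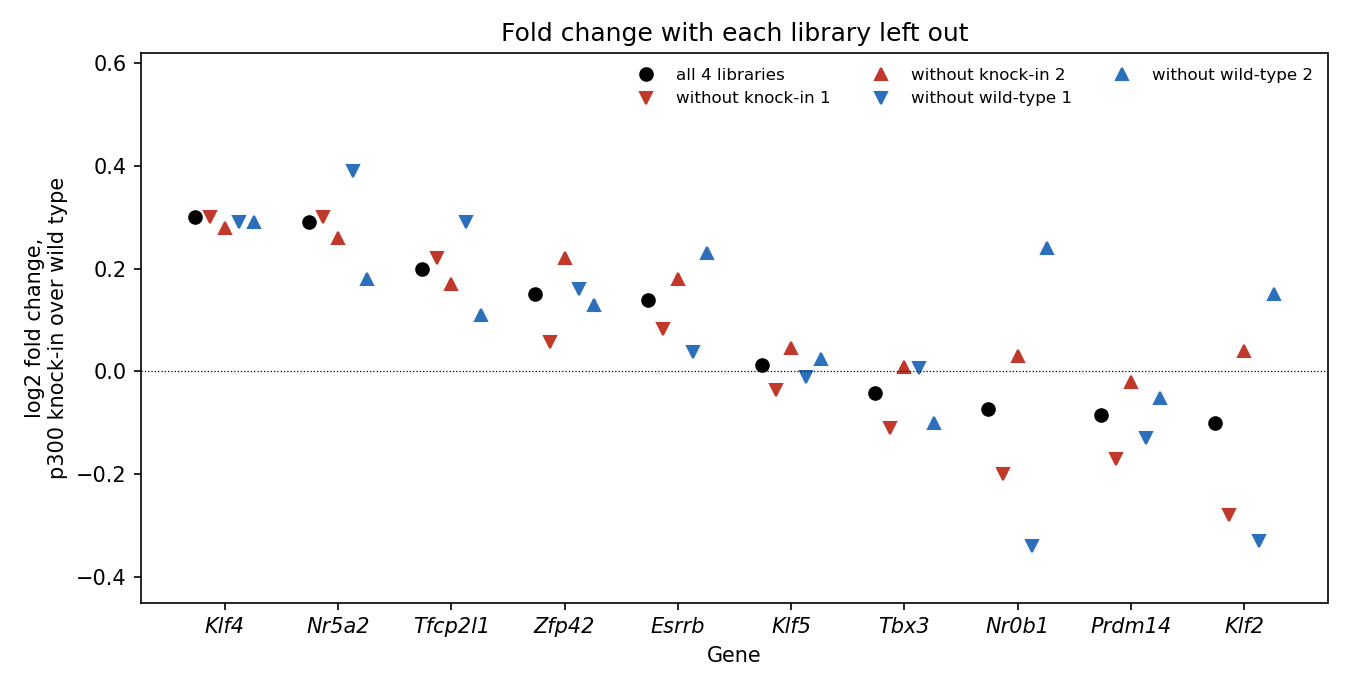
Log2 fold change of knock-in over wild type for each member with all 4 libraries (black) and with each library left out in turn. Klf4 stayed between 0.28 and 0.30, whereas Klf2 ran from -0.33 to 0.15 and Nr0b1 from -0.34 to 0.24 between the fits without wild-type 1 and without wild-type 2.

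Across the members, the log2 distance of wild-type 2 from the mean of the other 3 libraries varied with GC content. It was 0.43 for Nr0b1 and 0.39 for Klf2, and -0.32 for Nr5a2 and -0.25 for Tfcp2l1. Klf4 went against the trend, at -0.19 with a GC content of 54.6%, where Nr0b1 had 55.2%. Over the 10 members its Spearman rho with transcript GC content was 0.77, a description of 10 genes in the same libraries. Leaving out wild-type 1, which leaves wild-type 2 as the lone wild-type library, called 5 of 10 members: Klf4, Tfcp2l1 and Nr5a2 as higher and Klf2 and Nr0b1 as lower. That fit called 32.1% of all genes, 19.0% as higher and 13.1% as lower. Without wild-type 2 no member passed in edgeR, where 4.39% of all genes did. In that fit 3 of 10 had an unadjusted p under 0.05 (Klf4, Esrrb and Nr0b1), where 16.1% of all genes did, and 8 of 10 had a positive log2 fold change. With the GC offset 8 of 10 were positive as well, with a median of 0.12 beside 0.032 over all genes. The share of all genes with a positive value was not counted in either fit, so these counts have no background.

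The pattern of each member over the 4 libraries was set against those of 141 tested genes from the fixed lists, by the root mean square difference of centred log2 CPM. Zfp42 was nearest to Dppa5a (0.0079), Tbx3 to Jam2 (0.011), Klf5 to Etv5 (0.016), Esrrb to Dnmt3b (0.021) and Klf4 to Dppa4 (0.024). Klf2 was nearest to Pou5f1 (0.033), with Nr0b1 as its nearest member (0.051). Nr0b1 was nearest to Vim (0.032), Nr5a2 to Klf12 (0.037), Prdm14 to Socs3 (0.039) and Tfcp2l1 to Nr5a2 (0.043). With only 4 libraries and one of them apart, such nearness describes these libraries.

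Relatives of the members were mostly expressed at lower levels. In the Klf family the highest of 14 relatives were Klf9 and Klf10, at 30.8 and 28.0 CPM per kb, below Klf5 as the lowest of the KLF members at 64.4. Both are known as regulators that recruit SIN3 corepressors. None of the 13 relatives tested passed (median log2 fold change 0.22). Klf10 had 134 and 126 CPM in knock-in cells, and 103 and 105 CPM in wild-type cells, a difference of 0.32 ± 0.14 (SE) on the log2 scale with an edgeR adjusted p of 0.461. It passed without wild-type 1 (0.30, edgeR adjusted p = 0.0213). Klf9 had 155 and 165 CPM in knock-in cells, and 136 and 138 CPM in wild-type cells, a difference of 0.22 ± 0.14 (SE) on the log2 scale with an edgeR adjusted p of 0.550. Groups of both genes did not overlap, and 7 of the 13 tested relatives had both knock-in libraries above both wild-type libraries, as 23.4% of all genes did, and 1 had both below, as 23.9% did.

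In the other families a single member dominated, apart from Prdm. Esrrb at 140 CPM per kb compared with 7 for Esrra, and Esrrg had 1 read in 1 library. Tfcp2l1 at 60.0 CPM per kb compared with 16.9 for Ubp1 and 2.24 for Tfcp2. Tbx3 at 30.2 CPM per kb compared with 0.592 for Tbx21, the highest of 9 T-box relatives. Nr0b1 at 90.2 CPM per kb compared with 0.350 for Nr0b2. Nr5a2 had 13.1 CPM per kb, whereas its paralog Nr5a1 had 0 reads in both knock-in libraries and 1 and 3 reads in the wild-type libraries. Zfp42 at 447 CPM per kb compared with 22.0 for Yy1, and Yy2 had no read in any library, which allows up to 0.113 to 0.158 CPM by counting error alone. Prdm14, at 11.8 CPM per kb, lay between its relatives Prdm4 (12.7) and Prdm2 (11.5). None of the 15 tested relatives outside the Klf family passed.

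**Figure D4:**
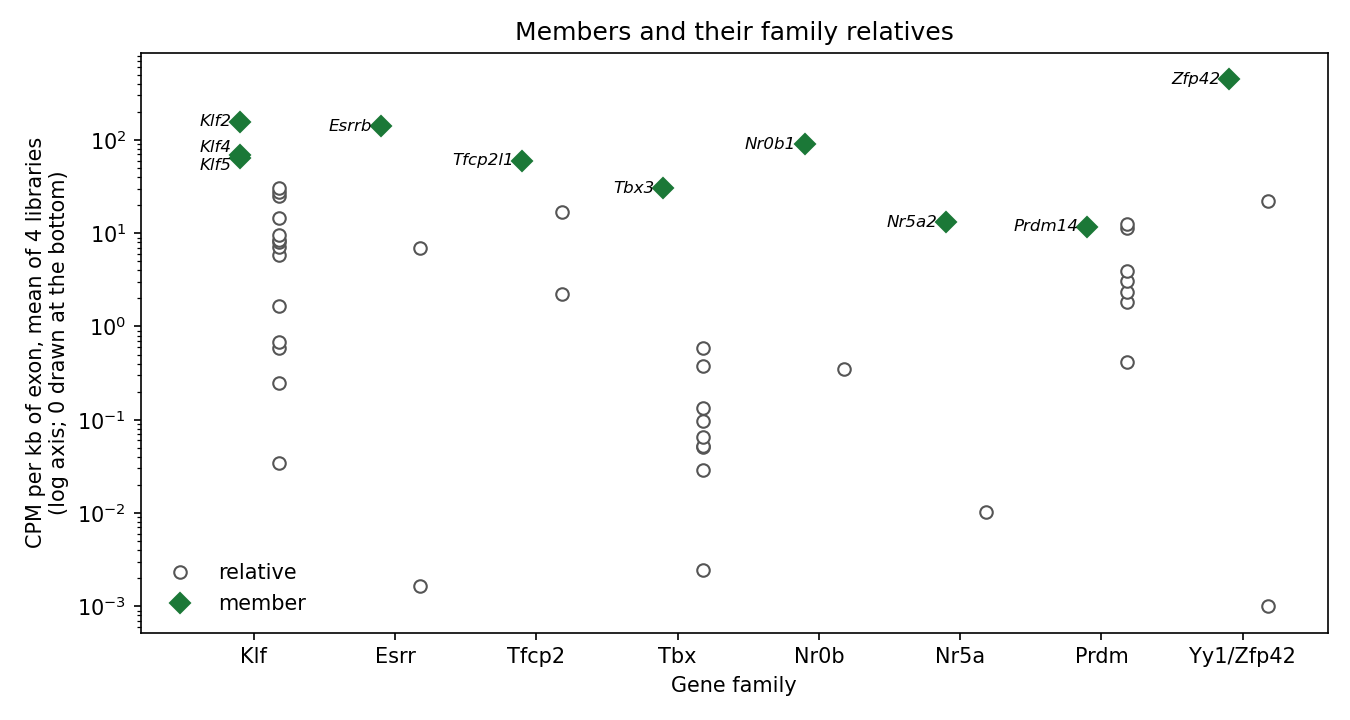
Level per length (CPM per kb of exon, mean of 4 libraries, log axis) of the members (green diamonds) and their fixed family relatives (open circles). In every family but Prdm the member lies above all relatives drawn, and Yy2, with no reads, is drawn at the bottom.

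The surrounding network was read from lists fixed for this report. None of the 12 core partners passed with all libraries (median log2 fold change 0.033). Among them Gbx2, a homeobox gene that acts downstream of LIF and STAT3 to hold the naive state, had 35.6 and 30.8 CPM in knock-in cells, and 18.3 and 20.8 CPM in wild-type cells. The groups did not overlap, and the log2 fold change of 0.76 (SE 0.18) did not pass (edgeR adjusted p = 0.201). It passed as higher with the GC offset (0.99, edgeR adjusted p = 0.00294) and by DESeq2 (adjusted p = 0.0481). It did not pass with replicate number added to the fit (0.76, edgeR adjusted p = 0.0691). Summing the strand columns gave a smaller value, 0.47, which did not pass (edgeR adjusted p = 0.419). Without wild-type 1 or 2 the value was 0.67 and 0.85, and without knock-in 1 or 2 it was 0.63 and 0.87. Of 20 inputs to the network (the LIF receptor and STAT3, WNT, FGF/ERK and BMP genes), 0 passed with or without the offset, with a median of 0.036. Ctnnb1 and Socs3, the highest of them, had 159 and 154, and 108 and 102 CPM per kb in knock-in cells, and 154 and 187, and 102 and 113 CPM per kb in wild-type cells.

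Of 17 effectors and markers of the naive state, 0 passed with all libraries (median log2 fold change 0.0099), 5 had both knock-in libraries above both wild-type libraries (23.4% of all genes) and 6 had both below (23.9%). Dppa5a, an RNA-binding protein gene of naive cells, was the highest at 2110 and 1920 CPM per kb in knock-in cells, and 1820 and 1780 CPM per kb in wild-type cells (log2 fold change 0.16, edgeR adjusted p = 0.675). Utf1, a chromatin protein gene, followed at 387 and 337 CPM per kb in knock-in cells, and 293 and 419 CPM per kb in wild-type cells. Tdh, the threonine dehydrogenase on which mouse stem cells depend, had 230 and 206 CPM in knock-in cells, and 139 and 173 CPM in wild-type cells. The difference of 0.48 ± 0.16 (SE; edgeR adjusted p = 0.378) on the log2 scale passed as higher with the GC offset (0.63, edgeR adjusted p = 0.0192), though not when knock-in 1 was also left out (0.54, adjusted p = 0.174). Without the offset it passed when wild-type 1 or 2 was left out (0.34 and 0.63). Of 12 tested formative and primed genes, which rise as the naive network falls, 0 passed with or without the offset. Their median log2 fold change was -0.34, or -0.18 with the offset, and 6 of 12 had both knock-in libraries below both wild-type libraries, against 23.9% of all genes, and 3 of 12 had both above, against 23.4%. Etv5 and Dnmt3l were the highest of that list, at 138 and 134, and 108 and 98.9 CPM per kb in knock-in cells, and 135 and 135, and 119 and 132 CPM per kb in wild-type cells.

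No marker of another cell type passed in the edgeR test with all libraries, and their levels ranged widely. The 12 primitive endoderm genes summed to 235 and 258 CPM in knock-in cells, and 390 and 431 CPM in wild-type cells, mostly from the basement membrane genes Lama1, Col4a1 and Col4a2. Of 10 tested, 4 had both knock-in libraries below both wild-type libraries (23.9% of all genes) and 1 had both above (23.4%). The median log2 fold change was -0.37, or -0.24 with the offset. With the GC offset Col4a1 (log2 fold change -0.89, edgeR adjusted p = 0.00372) and Col4a2 (-1.02, adjusted p = 0.00548) passed as lower. Without it their values were -1.10 and -1.23 (edgeR adjusted p = 0.0554 and 0.0604). DESeq2 called both as lower without the offset (adjusted p = 2.59e-06 and 4.29e-06), where 0.878% of all genes passed. With a library left out, Col4a1 ran from -1.15 to -1.06 and Col4a2 from -1.35 to -1.14. The defining factors Gata4, Gata6, Sox17 and Foxa2 were at or below 0.343 CPM per kb in every library. Sox7, another transcription factor of that list, had 0.983 and 0.471 CPM per kb in knock-in cells, and 0.826 and 1 CPM per kb in wild-type cells. The 10 trophoblast genes summed to 78.3 and 75.2 CPM in knock-in cells, and 67.1 and 72.8 CPM in wild-type cells, with Tfap2c and the keratin gene Krt18 the highest (11 and 5.26 CPM per kb). Tfap2c, a trophoblast factor that also binds naive enhancers, had 47.4 and 44.7 CPM in knock-in cells, and 34.2 and 34.9 CPM in wild-type cells. Its log2 fold change of 0.42 (edgeR adjusted p = 0.430) passed as higher with the offset (0.54, edgeR adjusted p = 0.0413), though not when knock-in 1 or 2 was also left out (adjusted p = 0.327 and 0.153). Without the offset it passed when wild-type 1 or 2 was left out (0.40 and 0.42). The 9 fibroblast and feeder genes summed to 1700 and 1940 CPM in knock-in cells, and 1810 and 2060 CPM in wild-type cells, nearly all from Fn1 and Vim, at 114 and 108 CPM per kb, and Postn and Dcn did not pass the low-count filter. The median log2 fold change of the 6 tested was -0.71, or -0.53 with the offset, and 4 of 6 had both knock-in libraries below both wild-type libraries (Col1a1, Col1a2, Thy1 and Pdgfrb), against 23.9% of all genes. The 10 mesoderm and neural genes summed to 165 and 151 CPM in knock-in cells, and 152 and 238 CPM in wild-type cells. Most of that was the tubulin gene Tubb3, at 133 and 122 CPM in knock-in cells, and 117 and 205 CPM in wild-type cells (77.2 CPM per kb), and Nes followed at 3.59 CPM per kb. The median over the 8 tested was -0.21, or -0.094 with the offset. The 9 2-cell-like genes matched in the files summed to 366 and 333 CPM in knock-in cells, and 297 and 195 CPM in wild-type cells. Most of that was Eif1a, at 309 and 284 CPM in knock-in cells, and 253 and 162 CPM in wild-type cells. The sums therefore say little about the other genes of the list. With the GC offset Eif1a read 280 and 250 CPM in knock-in cells, and 228 and 226 CPM in wild-type cells. Zscan4c, one of a cluster of near-identical copies among which reads are assigned with uncertainty, had 20.2 and 16.1 CPM in knock-in cells, and 15.3 and 12 CPM in wild-type cells. The median over the 8 tested was 0.46, or 0.30 with the offset. Both knock-in libraries were above both wild-type libraries for 5 of 8 (Zscan4c, Zscan4d, Zscan4f, Usp17lb and Eif1a), against 23.4% of all genes. Both were below for 0 of 8, against 23.9%. Zscan4c, Zscan4d and Zscan4f are copies of that cluster, so they do not count as separate genes here. The part of these cells in the members' values was not tested.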

How the data were processed

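RNA was measured in 2 knock-in and 2 wild-type libraries, built per the labels from total RNA with the Illumina TruSeq RNA kit. The deposited files hold raw read counts per gene for each library; reads were trimmed with Trim Galore and aligned with STAR 2.5.3a to GRCm38 (mm10) per the submitters' processing notes, and the annotation release is not given in the sources used here. GENCODE M21 held 54809 of the 54838 identifiers and gave symbols, coordinates, exon lengths and GC content. The unstranded column was used, and the 4 summary rows (unmapped, multimapping, outside features, ambiguous, each 2.23% to 6.38% of reads) were left out. Counts were tested with edgeR 4.0.16 (R 4.3.3): TMM, filterByExpr with a minimum count of 10, a genotype-only quasi-likelihood F test on all libraries and Benjamini-Hochberg adjustment over 15191 genes. SE is the absolute log2 fold change over the square root of F. Alternatives included DESeq2 1.42.0 and a GC offset, in which a spline with 5 degrees of freedom was fitted per library over transcript GC content. The procedure was tested on simulated data with planted changes larger than that of any member, so changes of the members' size were not tested. Members, lists, naming rule and settings were chosen with earlier results of these data known. All members are named. Of other lists, those that passed with or without the offset and the highest 2 by level per length are named. In family lists, relatives of a member are named by level per length. Ep300 and Crebbp are always named. Other genes, such as the Prdm14 targets and defining factors of other cell types, were named after their values were seen. Labels call the replicates biological and state no pairing.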

Additional observations from a re-analysis of the deposited data

How the results depend on the processing

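Over 17 other settings, Klf4 (0.27 to 0.53), Esrrb (0.038 to 0.37) and Tfcp2l1 (0.11 to 0.29) kept a positive log2 fold change. The 8 other genes followed over these settings kept their sign too (Gbx2, Tdh, Tfap2c, Klf9, Klf10 and Dppa5a positive, Col4a1 and Col4a2 negative). Gbx2, Tdh, Tfap2c, Col4a1 and Col4a2 were named because they passed with the GC offset, so their steady sign adds no support. The remaining genes of the other lists were not followed over all settings. Of 131 tested genes of the other lists, 18 changed sign with the GC offset, among them Pou5f1, Socs3 and Fn1. Members passing stayed at 0 of 10 except in fits without a wild-type library: 0 to 5 of 10 with a library left out, and 1 of 10 with the offset and without wild-type 1 or 2. The count of genes passing, 10 in the main setting, was 354 with no low-count filter, 123 with DESeq2, 177 with the GC offset, 197 with the replicate block, 416 with the GC offset and the replicate block, and 16 to 5015 with a library left out. With the offset and without knock-in 1, knock-in 2, wild-type 1 or wild-type 2, settings chosen after seeing the data, it was 94, 108, 1773 and 676. The cause was not tested. Same-numbered libraries deviated with a correlation of -0.12. With 2 libraries a line this value cannot show whether the numbers pair the samples. A crossed block, also chosen after seeing the data, called 509 genes. Neither block changed a call for a member. The members' median log2 fold change, 0.076, was 0.011 to 0.14 with a library left out and 0.029, 0.16, 0.0093 and 0.19 in those 4 settings.

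The sign turned in at least 1 setting for 7 of 10 members. With the GC offset, alone and with the block, the log2 fold change was 0.14 and 0.14 for Klf2, -0.013 and -0.010 for Klf5, 0.12 and 0.12 for Tbx3, and 0.12 and 0.13 for Nr0b1. Klf5 was also -0.0067 without a filter, -0.019 with a stricter filter and -0.0054 with summed strand columns. With a library left out, Klf2 ran from -0.33 to 0.15, Klf5 from -0.036 to 0.045, Tbx3 from -0.11 to 0.0095 and Nr0b1 from -0.34 to 0.24. With the offset too, and without knock-in 1, knock-in 2, wild-type 1 or wild-type 2, Klf2 was -0.00079, 0.28, 0.042 and 0.24, Klf5 -0.051, 0.032, -0.11 and 0.084, Tbx3 0.058, 0.18, 0.24 and -0.0035, Nr0b1 0.00059, 0.24, -0.072 and 0.34, Prdm14 -0.091, 0.056, -0.068 and 0.026, Nr5a2 0.11, 0.071, -0.024 and 0.20, and Zfp42 -0.012, 0.15, -0.034 and 0.17. With 2 libraries a line, differences within the printed intervals were not excluded.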
